A study of Rattus norvegicus with 8 samples.

Results

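The genes described here are the AMPA receptor subunit genes Gria1, Gria2, Gria3 and Gria4, and the TARP genes Cacng2, Cacng3 and Cacng8. They are 7 of the 17168 genes listed for each library, chosen by gene symbol. All 7 were listed in every library and passed the filter on low counts. RNA was sequenced from homogenate of the medial prefrontal cortex, a frontal region that takes part in withholding actions, of male Sprague-Dawley rats. The HI group held 4 libraries from rats of high motor impulsivity, the upper quartile of rats for premature responding in the 1-CSRT task, in which a rat has to wait for a light before it pokes. The LI group held 4 libraries from rats of low motor impulsivity, the lower quartile. The labels give 4 to 6 rats per phenotype. The labels name no drug, allele or lesion in either group and give no age or batch. They do not say outright that each library came from a separate rat, so the p-values measure the spread between these libraries.

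AMPA receptors are the glutamate-gated channels that carry most fast excitatory transmission in the brain. Each receptor is built from the subunits GluA1 to GluA4, the products of Gria1 to Gria4, and its makeup sets its calcium permeability and its traffic. TARPs (transmembrane AMPA receptor regulatory proteins) are auxiliary subunits that carry the receptors to the surface, anchor them at synapses through the scaffold PSD-95, and change the opening of the channel.

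None of the 7 genes differed between HI and LI beyond the spread between libraries. The gene nearest to a difference was Gria1, with a log2 fold change (HI minus LI) of 0.27 ± 0.14 (SE). In edgeR's quasi-likelihood test, 0 of the 7 passed the threshold of 0.1 on the p adjusted over all genes by Benjamini-Hochberg, and each had an adjusted p of 1.00. Over all 11631 genes tested the same rule called 0 genes, or 0% of them, with a smallest adjusted p of 1.00. At an unadjusted p under 0.05 there were 0 of the 7, and 484 of all genes, or 4.16%. DESeq2 also called 0 of the 7, and 38 of all genes, or 0.327%. In each of the 7 genes the HI and LI libraries overlapped, while they did not overlap in 402 of all genes, or 3.46%, with HI above LI in 2.31% and HI below LI in 1.14%. The log2 fold change was above 0 in 5 of the 7, against 48.5% of all genes, and its median was 0.09, against -0.0069 over all genes. That count rested on single libraries, being 2 of 7 without HI4 and 3 of 7 without LI2, and was 3 of 7 on total counts, which moved the median over all genes to -0.12.

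Libraries held between 7354416 and 9476656 counts. Ribosomal RNA (the Rn45s and Rn28s transcripts) took 0.406% of the counts in HI4 and 0.418% in LI3, which stood apart from the rest, 25.5% in HI2, and between 1.37% and 6.42% in the other 5. Values below are CPM, the counts scaled to a common library size after TMM scaling, where 1 gene is compared across libraries. They are TPM, which also divides by transcript length, where genes are compared with each other.

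Gria1 encodes GluA1, the subunit whose insertion at synapses is driven by activity and which can form calcium-permeable channels. It stood at 216, 279, 236 and 231 CPM in HI1 to HI4, against 170, 238, 211 and 177 CPM in LI1 to LI4. HI lay above LI in 13 of the 16 pairs of libraries, but LI2, the highest LI library, lay above 3 of the 4 HI libraries. HI libraries averaged 241 ± 27.1 CPM and LI libraries 199 ± 31.6 CPM (mean ± SD of 4). The 95% interval of the log2 fold change ran from -0.03 to 0.58 (edgeR, unadjusted p = 0.0730). With 1 library left out, its log2 fold change ran from 0.20 without HI2 (edgeR, unadjusted p = 0.207) to 0.37 without LI2. The latter had an unadjusted p of 0.0219 and an adjusted p of 1.00 (edgeR). Gria1 was also the member whose libraries varied least within groups, by 0.19 log2 units (SD), where the median over all genes was 0.27. Group membership accounted for 41.0% of its variance over the 8 libraries, and for between 0.126% and 9.44% in the other 6 genes.

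Gria2 encodes GluA2, the subunit whose RNA is edited in the pore region and which makes a receptor nearly impermeable to calcium. It stood at 737, 656, 750 and 986 CPM in HI1 to HI4, against 774, 580, 922 and 670 CPM in LI1 to LI4. The highest library of each group was HI4 and LI3, and the lowest was HI2 and LI2. Its log2 fold change was 0.09 ± 0.17 (SE), with a 95% interval from -0.29 to 0.47 (edgeR, unadjusted p = 0.620), and the sign was not stable: it was -0.04 without HI4, -0.010 without LI2 and -0.011 on total counts with no scaling factors.

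Gria3 encodes GluA3, which mostly pairs with GluA2. It stood at 402, 392, 448 and 744 CPM in HI1 to HI4, against 466, 322, 554 and 417 CPM in LI1 to LI4. HI4 lay far above the other 3 HI libraries, and those 3 lay inside the LI range. Its log2 fold change of 0.17 ± 0.23 (SE) was -0.09 without HI4 (95% interval with all libraries -0.34 to 0.69, edgeR, unadjusted p = 0.468).

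Gria4 encodes GluA4, which in the adult cortex is carried largely by inhibitory interneurons. It stood at 117, 96.9, 121 and 188 CPM in HI1 to HI4, against 119, 91.7, 149 and 113 CPM in LI1 to LI4. The order of the libraries was close to that of Gria2 and Gria3, with HI4 and LI3 on top. The estimate was 0.15 ± 0.21 (SE) on the log2 scale and -0.08 without HI4 (95% interval with all libraries -0.33 to 0.62, edgeR, unadjusted p = 0.513). In a tissue homogenate, fewer cells of a type and less RNA per cell cannot be told apart. The summed level of 7 interneuron markers ran from 626 to 718.5 CPM in HI and from 701 to 919 CPM in LI, with all 7 counted in every library. The summed level of 6 microglia markers did not overlap, at 203 to 241 CPM in HI and 255 to 269 CPM in LI. The sums of every other cell type marker list read did overlap, and single genes did not overlap in 3.46% of all tested. The summed level of 6 meningeal and fibroblast markers ran from 69.6 to 859 CPM in HI, highest in HI1, and from 30.4 to 196 CPM in LI. The part of any of these markers in the levels of the 7 genes was not tested.

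**Figure D1:**
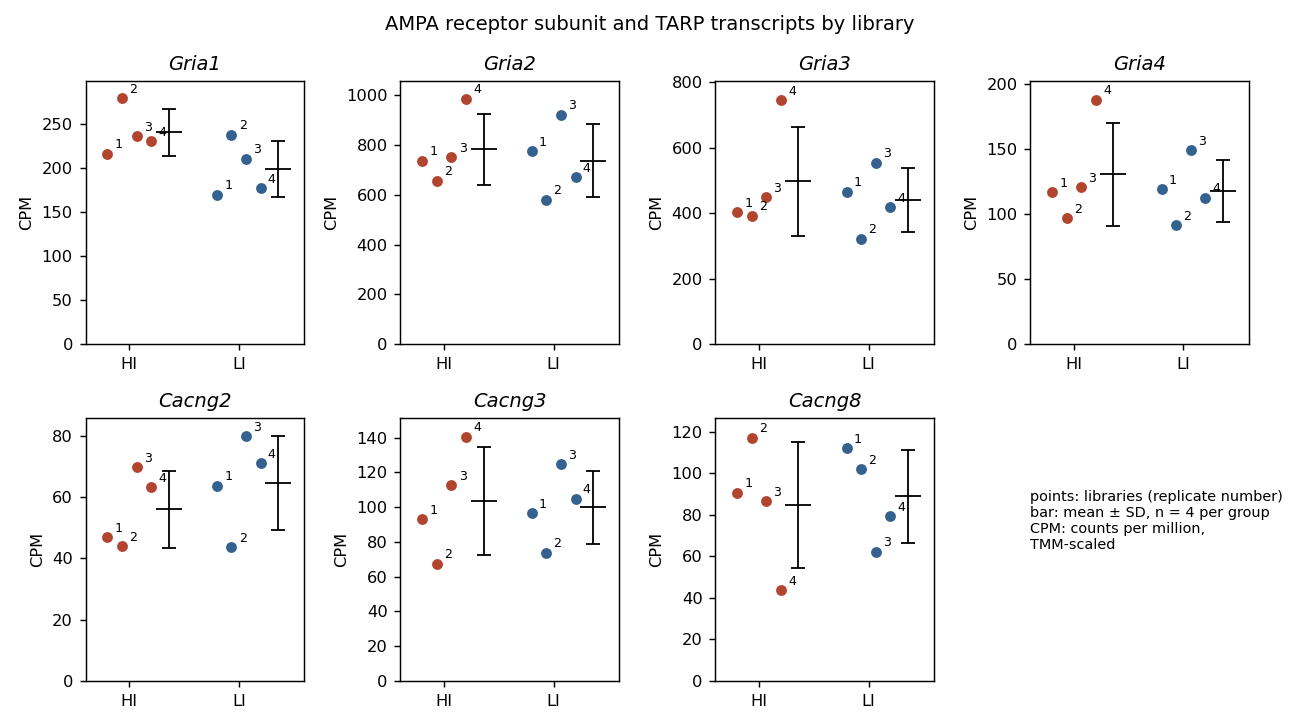
Level of each gene in every library, in CPM on an axis from 0; HI is on the left and LI on the right of each panel, points carry the replicate number, and bars are the mean ± SD (n = 4). HI and LI overlap in all 7 panels, and HI4 is the highest HI library for Gria2, Gria3, Gria4 and Cacng3 and the lowest for Cacng8.

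Of the TARPs, Cacng2 encodes stargazin, the founding member of the family, known from the ataxic stargazer mouse. It stood at 46.9, 44.0, 69.7 and 63.2 CPM in HI1 to HI4, against 63.7, 43.5, 79.8 and 70.9 CPM in LI1 to LI4. HI lay above LI in 5 of the 16 pairs, the fewest of the 7 genes. It differed by -0.20 ± 0.21 (SE) on the log2 scale, with a 95% interval from -0.67 to 0.26 (edgeR, unadjusted p = 0.355). With 1 library left out, the difference ran from -0.35 without LI2 to -0.08 without LI3.

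Cacng3 encodes a TARP of the same class that is found mainly in cerebral cortex. It stood at 93.0, 67.4, 113 and 141 CPM in HI1 to HI4, against 96.5, 73.7, 125 and 105 CPM in LI1 to LI4. Its libraries had the same top and bottom as those of Gria2, and HI lay above LI in 8 of the 16 pairs. The difference, 0.05 ± 0.23 (SE) on the log2 scale (95% interval -0.45 to 0.56, edgeR, unadjusted p = 0.828), was -0.13 without HI4, -0.07 without LI2 and -0.04 on total counts with no scaling factors.

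Cacng8 encodes the TARP that is most abundant in hippocampus and is also present in cortex. It stood at 90.6, 117, 86.7 and 43.8 CPM in HI1 to HI4, against 112, 102, 62.3 and 79.3 CPM in LI1 to LI4. Here HI4 and LI3 were the lowest libraries of their groups, the reverse of the order in Gria2, Gria3, Gria4 and Cacng3. The log2 fold change was -0.07 ± 0.28 (SE), with a 95% interval from -0.70 to 0.55 (edgeR, unadjusted p = 0.795), 0.14 without HI4 and 0.05 without LI1. With log2 of the ribosomal RNA share as a covariate, chosen after seeing the data, Cacng8 was the only one of the 7 to pass, at -0.32 (edgeR, adjusted p = 0.0959). That analysis called 440 of all 11631 genes. Without HI4 or without LI3 it called 0 genes, Cacng8 included (edgeR, Cacng8 adjusted p = 0.546 and 0.203). With the ribosomal RNA share itself as a covariate, 0 genes passed, and Cacng8 was at -0.34 (edgeR, adjusted p = 0.711).

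**Figure D2:**
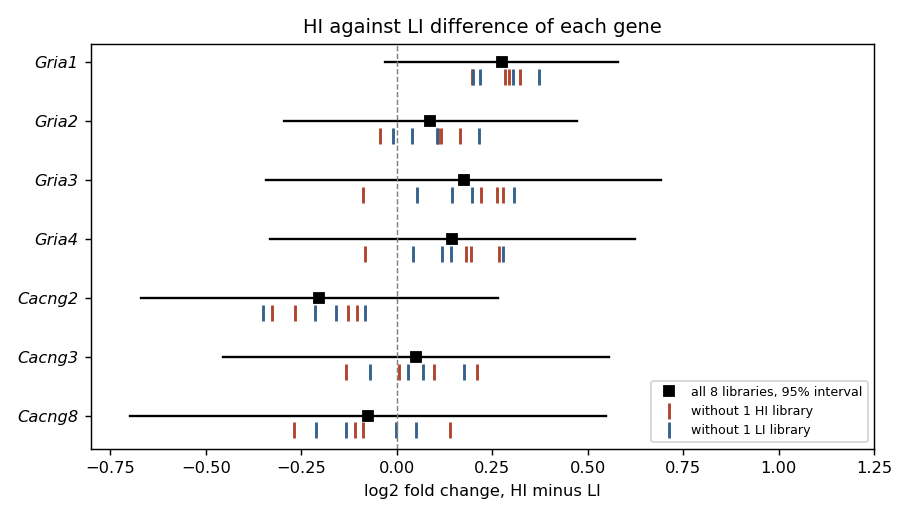
Log2 fold change of each gene, HI minus LI, from edgeR: squares are all 8 libraries with a 95% interval as a line, and ticks below are the values with 1 library left out (HI libraries in red, LI libraries in blue). All 7 intervals span 0, and the ticks lie on both sides of 0 for 5 genes, the exceptions being Gria1 and Cacng2.

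The regions before the starts of the TARP genes are shown as a description of their sequence. The table of start regions matched Cacng2, Cacng3, Cacng8 and Gria4, and no entry was found for Gria1, Gria2 or Gria3. The sequences are the 250 bases before the start in RefSeq, build GRCr8, written 5′ to 3′ on the gene's strand. Capitals mark the letters GGCGG on either strand (CCGCC on the strand shown).
Cacng2, chr7:111577758-111578007, minus strand: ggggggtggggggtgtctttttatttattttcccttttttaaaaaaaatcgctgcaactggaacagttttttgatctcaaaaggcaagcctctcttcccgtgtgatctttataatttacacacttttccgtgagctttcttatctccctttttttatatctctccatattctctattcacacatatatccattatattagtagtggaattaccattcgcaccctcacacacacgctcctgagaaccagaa
Cacng3, chr1:186632312-186632561, plus strand: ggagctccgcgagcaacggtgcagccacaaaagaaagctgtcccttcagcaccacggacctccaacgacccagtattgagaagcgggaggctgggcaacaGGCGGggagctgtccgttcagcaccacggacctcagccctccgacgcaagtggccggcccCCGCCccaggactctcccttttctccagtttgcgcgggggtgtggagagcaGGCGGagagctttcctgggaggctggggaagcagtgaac
Cacng8, chr1:74691004-74691253, minus strand: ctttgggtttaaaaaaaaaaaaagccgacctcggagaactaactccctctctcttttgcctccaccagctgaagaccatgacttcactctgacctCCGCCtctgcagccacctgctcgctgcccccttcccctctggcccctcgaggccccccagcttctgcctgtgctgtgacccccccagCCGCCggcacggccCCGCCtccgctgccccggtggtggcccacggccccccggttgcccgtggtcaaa
Cacng3 and Cacng8 held the same number of these marked stretches, 3 each, and the same GC content, 64.8%. Cacng2 held 0 marked stretches and 38.4% GC. Of 33469 start regions of that length, 42.8% held GGCGG on either strand, and the median GC content was 51.2%. The E-box CAGCTG, read on both strands, occurred 1 time in Cacng8, 2 times in Gria4 and 0 times in Cacng2 and Cacng3, and in 11.97% of all regions. TATAAA, also read on both strands, occurred 2 times in Cacng2, 0 times in Cacng3, Cacng8 and Gria4, and in 12.9% of all regions. Letters before a start are a description of the sequence and were not set against any measurement of binding. Their part in the levels over the libraries was not tested.

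Per length, Cacng3 had the highest level of the 7 genes at 249 ± 62.1 TPM and Gria4 the lowest at 79.6 ± 22.8 TPM (mean ± SD over 8 libraries). Between them stood Gria2 at 232 ± 42.5, Gria3 at 193 ± 55.0, Gria1 at 172 ± 26.5, Cacng8 at 153 ± 42.0 and Cacng2 at 122 ± 27.4 TPM. Only the step from Cacng2 down to Gria4 held in all 8 libraries. Among neighbours, Gria2 exceeded Gria3 in 7 of 8 libraries, Cacng3 exceeded Gria2 and Gria1 exceeded Cacng8 in 6, Cacng8 exceeded Cacng2 in 5 and Gria3 exceeded Gria1 in 4, so the order of Gria3 and Gria1 was not fixed. The transcript models differ in kind, from 948 bases for Cacng3 to 6741 bases for Gria2. Levels between genes therefore carry the choice of model as well as the amount of RNA.

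No difference in subunit proportions between HI and LI passed the test. Gria2 made up the largest part of the summed Gria1 to Gria4 TPM, at 33.4 ± 1.75% in HI, against 35.1 ± 2.29% in LI (mean ± SD of 4 libraries, as for the shares below). Gria3 followed at 28.0 ± 3.77% in HI and 28.2 ± 2.86% in LI, then Gria1 at 27.1 ± 5.87% in HI and 24.97 ± 6.00% in LI. Gria4 made up 11.5 ± 1.77% in HI and 11.7 ± 1.02% in LI. In two-sided exact permutation tests over the 70 assignments of libraries, p was 0.629 for Gria1, 0.286 for Gria2, 0.914 for Gria3 and 0.914 for Gria4.

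The Gria1 share set the libraries apart more than the groups. It was 26.7, 34.2, 27.4 and 19.8% in HI1 to HI4, against 20.95, 33.8, 21.5 and 23.7% in LI1 to LI4. The HI2 and LI2 libraries had the highest share of their groups, and in both Gria1 was the leading subunit. Gria2 led in 5 of the other 6 libraries, and Gria3 led in HI4 by a small margin, at 33.5% against 33.0% for Gria2. The Gria2 share moved little by comparison, between 31.3 and 37.2% over the 8 libraries. The log2 ratio of Gria1 to Gria2 was -0.33 ± 0.36 in HI, against -0.52 ± 0.41 in LI (mean ± SD of 4 libraries; exact permutation test, p = 0.457). The difference between HI and LI in this log2 ratio was 0.19, but 0.04 without HI2 and 0.39 without LI2.

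Of the summed TPM of Cacng2, Cacng3 and Cacng8, Cacng3 made up 48.5 ± 10.98% in HI and 45.6 ± 5.76% in LI. Cacng8 made up 29.7 ± 12.8% in HI and 30.1 ± 9.41% in LI, and Cacng2 21.8 ± 2.68% in HI and 24.3 ± 3.77% in LI. The exact permutation p was 0.657 for Cacng3, 0.971 for Cacng8 and 0.371 for Cacng2. After Benjamini-Hochberg adjustment over the 8 shares and ratios tested, each p was 0.971. Over 6 TARP genes, Cacng4, Cacng5 and Cacng7 included, Cacng3 made up 34.0 ± 9.30% in HI and 30.9 ± 4.55% in LI. Cacng7 then made up 21.1 ± 2.65% in HI and 23.3 ± 2.51% in LI. Cacng8 made up 20.5 ± 8.35% in HI and 20.3 ± 6.40% in LI, and Cacng2 15.2 ± 2.36% and 16.4 ± 2.75%.

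The Cacng8 share of the 3 TARP genes Cacng2, Cacng3 and Cacng8 spanned the widest range of the proportions tested. It was 33.2, 44.9, 26.9 and 14.1% in HI1 to HI4, against 35.2, 40.2, 19.1 and 25.9% in LI1 to LI4. It was lowest in HI4 and LI3, the libraries with the least ribosomal RNA, and highest in HI2 and LI2. Of these 3 genes, Cacng8 led in HI2, at 44.9% against 35.8% for Cacng3, and Cacng3 led in 6 libraries. In LI2 Cacng8 and Cacng3 were level, at 186.85 and 186.77 TPM. The summed TPM of these 3 genes was 0.731 ± 0.101 times the summed subunit TPM in HI, against 0.841 ± 0.0773 times in LI (mean ± SD of 4). HI ran from 0.601 to 0.843 and LI from 0.747 to 0.920, given as values with no test.

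**Figure D3:**
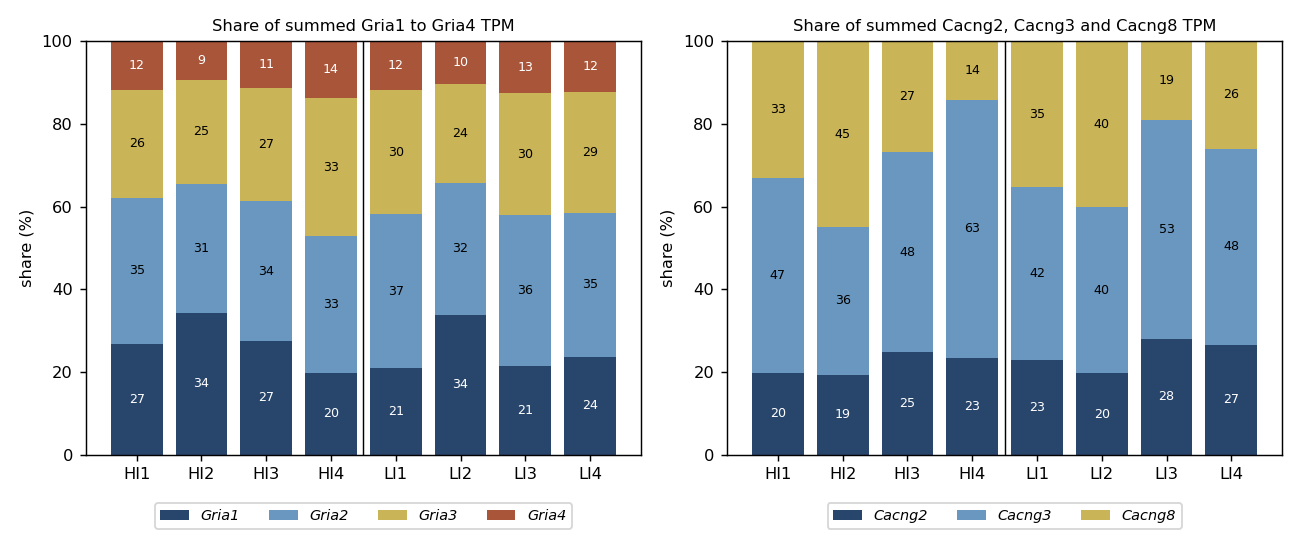
Share of each gene in the summed TPM of its family, in percent, by library, with Gria1 to Gria4 on the left and Cacng2, Cacng3 and Cacng8 on the right; the line parts HI (left) from LI (right). Gria1 runs from 19.8 to 34.2% and Cacng8 from 14.1 to 44.9%, and both ranges are as wide inside HI as across all libraries.

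The 7 genes fell into different patterns over the libraries. Gria2, Gria3, Gria4 and Cacng3 were highest in HI4 and LI3 and lowest in HI2 and LI2, in their own groups. Cacng2 shared the low HI2 and LI2 and the high LI3, but had its highest HI value in HI3. In HI4, log2 CPM stood above the gene's mean over 8 libraries by 0.40 in Gria2, 0.71 in Gria3, 0.63 in Gria4 and 0.50 in Cacng3, and at -0.92 in Cacng8. In LI3 the same values were 0.30, 0.29, 0.30, 0.33 and -0.41. Gria1 was at 0.09 in HI4 and -0.04 in LI3, near its mean in both.

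HI4 and LI3 shared a low ribosomal RNA share but not a slope on transcript length. The slope of centred log2 CPM on transcript length was 0.13 log2 units per doubling of length in HI4 and 0.0055 in LI3, and it lay between -0.08 and 0.0090 in the other 6 libraries. With each library's slope on length removed, limma's log2 fold change was -0.01 for Gria2, 0.07 for Gria3, 0.08 for Gria4 and 0.26 for Gria1. Without that removal limma gave 0.09, 0.15, 0.12 and 0.28 in the same order. Removal took Cacng2 from -0.20 to -0.13, Cacng3 from 0.02 to 0.10 and Cacng8 from -0.12 to -0.07. With the slope removed, 0 of the 7 passed (limma, each adjusted p = 1.00). LI2 carried the highest summed oligodendrocyte markers, 6341 CPM against 1664 to 3390 CPM in the other LI libraries and 1942 to 2119 CPM in HI. It also carried the highest summed striatal neuron markers, 691 CPM against 265 to 292 CPM in the other LI libraries and 273 to 315 CPM in HI, with all 6 genes of each list counted in every library. The part of these markers in the low Gria2, Gria3 and Gria4 of LI2 was not tested. The summed level of the 6 excitatory neuron markers listed ran from 1404 to 2058 CPM in HI and from 1469 to 1769 CPM in LI, with all 6 counted in every library. The lowest sums were those of HI4 and LI3, the libraries highest in Gria2, Gria3, Gria4 and Cacng3, and their part in that pattern was not tested.

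**Figure D4:**
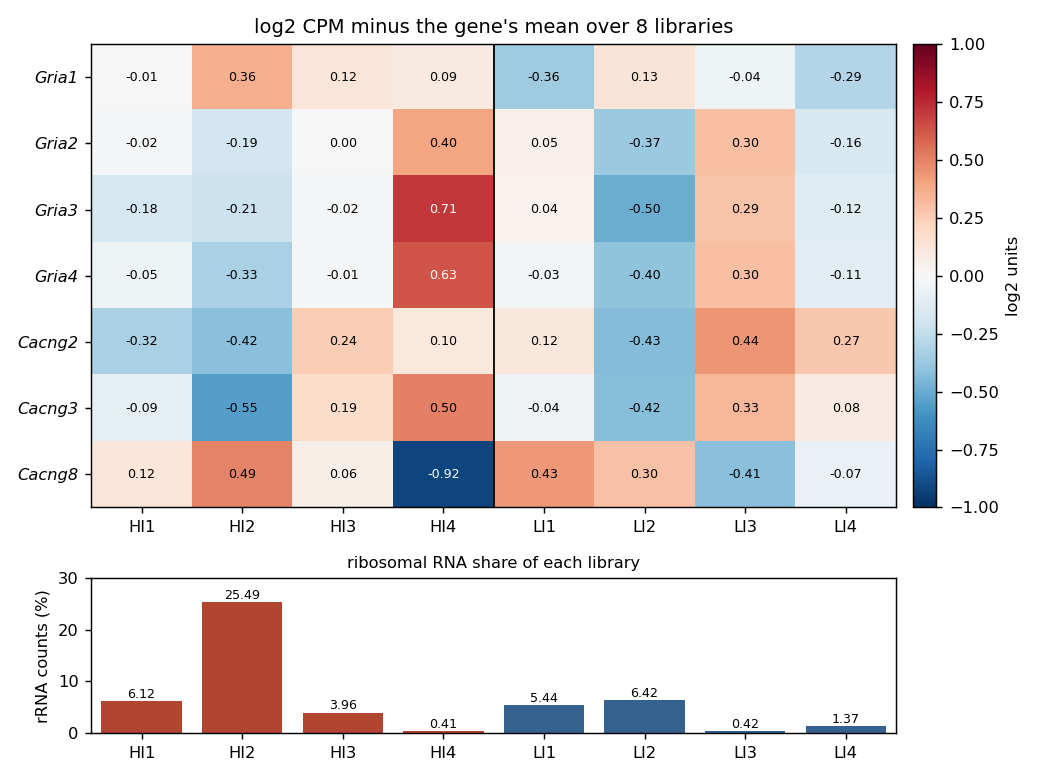
Top, log2 CPM of each gene in each library minus its mean over the 8 libraries, with HI left of the line and LI right of it. Bottom, the percentage of counts from ribosomal RNA; HI4 and LI3, at 0.406% and 0.418%, have high Gria2, Gria3, Gria4 and Cacng3 and low Cacng8.

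Likeness between genes was measured as the root mean square difference of their centred log2 CPM over the 8 libraries, which share depth and RNA quality across genes. Gria3 and Gria4 differed by 0.077 log2 units and Gria2 and Gria4 by 0.10, where Gria3 itself spread by 0.34 around its mean. Cacng3 differed from Gria4 by 0.13 and Cacng2 from Cacng3 by 0.20. Other genes lay nearer than most of these. In nearness to Gria4 among all genes tested, Gria3 was at rank 12, Gria2 at rank 66 and Cacng3 at rank 246. In nearness to Cacng3, Cacng2 was at rank 828. Gria1 stood at least 0.35 from each of the other 6 genes and Cacng8 at least 0.49. Of all genes tested, the nearest to Gria1 was Stxbp5 (0.076), and the nearest to Gria2 were Sub1 (0.051) and Cast (0.056). Gria3 was nearest to Rbms1 (0.055), then to Gria4, and Gria4 was nearest to Dcun1d1 (0.057) and Matr3 (0.061). Among the TARPs, Cacng2 was nearest to Ctxn1 (0.066) and Hcfc1r1 (0.076), Cacng3 to Cnot7 (0.060) and Pitpna (0.066), and Cacng8 to Nudt22 (0.069) and Sppl2b (0.073).

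Other genes of AMPA receptor function were read from 3 lists, covering auxiliary and biogenesis proteins, trafficking and anchoring proteins, and editing and phosphorylation enzymes. Of the 41 genes on them, 38 were matched by symbol in the tables and tested, all but Gsg1l, Shisa9 and Frrs1l. In edgeR's quasi-likelihood test 0 of the 38 passed, with 21 above 0, 17 below 0 and a median log2 fold change of 0.01, against -0.0069 over all genes. HI and LI did not overlap in 2 of the 38, or 5.26%, against 3.46% of all genes, and 2 had an unadjusted p under 0.05, or 5.26%, against 4.16% of all genes.

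Of 13 auxiliary and biogenesis genes, 5 were above 0 and 8 below 0, with a median log2 fold change of -0.02. The other TARPs were among them. Cacng7, a TARP of a second class with weaker effects on gating, averaged 54.3 ± 7.77 CPM over the HI libraries, against 64.2 ± 11.9 CPM over the LI libraries (SD of 4), or -0.24 ± 0.16 (SE) on the log2 scale and -0.12 without LI4. Cacng4 averaged 24.5 ± 2.95 CPM in HI, against 24.8 ± 2.87 CPM in LI. Cacng5, of the same class as Cacng7, was low, with 3.68 ± 1.85 CPM in HI, against 4.37 ± 2.77 CPM in LI. Cnih2, a cornichon protein that carries AMPA receptors out of the endoplasmic reticulum and slows their closing, averaged 283 ± 65.2 CPM in HI, against 306 ± 31.9 CPM in LI. Its relative Cnih3 averaged 12.6 ± 2.09 CPM in HI, against 12.1 ± 2.46 CPM in LI. The lowest log2 fold change on the lists was that of Shisa8, of a family of AMPA receptor auxiliary proteins, at -1.78 ± 0.87 (SE), named here after its values were seen. It stood at 38.5 CPM in LI4 and between 1.46 and 5.95 CPM in the other 7 libraries, and without LI4 its log2 fold change was 0.03.

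Of 15 trafficking and anchoring genes, 10 were above 0 and 5 below 0, with a median of 0.08. Myo5a, which encodes the motor myosin Va, stood at 402, 362, 457.7 and 598 CPM in HI1 to HI4, against 238, 313, 332 and 302 CPM in LI1 to LI4. The lowest HI library exceeded the highest LI library, as in 2.31% of all genes. Its log2 fold change was 0.62 ± 0.17 (SE), from 0.46 to 0.72 with 1 library left out, and its adjusted p was 1.00 (edgeR, unadjusted p = 0.00464). With log2 of the ribosomal RNA share as a covariate Myo5a passed (edgeR, adjusted p = 0.0485), but not without HI4 or LI3 (adjusted p = 0.518 and 0.170). Grip1, a scaffold that binds GluA2 and GluA3, differed by 0.18 ± 0.18, Dlg1, a scaffold that binds GluA1, by 0.17 ± 0.15, Pick1, which binds GluA2 during internalisation, by -0.01 ± 0.14, and the fusion factor gene Nsf by 0.07 ± 0.11 on the log2 scale (SE). All 4 overlapped between the groups. Without HI4, Grip1 differed by 0.02 and Dlg1 by 0.03, and without HI3 Nsf differed by 0.02.

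Of 10 editing and phosphorylation genes, 6 were above 0 and 4 below 0, with a median of 0.02. Adarb1, the enzyme that edits Gria2 RNA at its pore site, averaged 222 ± 24.2 CPM in HI, against 234 ± 26.2 CPM in LI (SD of 4). Prkacb, a catalytic subunit of protein kinase A, which phosphorylates GluA1, stood at 193, 184, 180 and 176 CPM in HI1 to HI4, against 143, 173, 132 and 130 CPM in LI1 to LI4. The groups did not overlap, by a small margin between HI4 and LI2. Its log2 fold change was 0.34 ± 0.11 (SE), from 0.29 to 0.44 with 1 library left out, and the adjusted p was 1.00 (edgeR, unadjusted p = 0.0132).

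**Figure D5:**
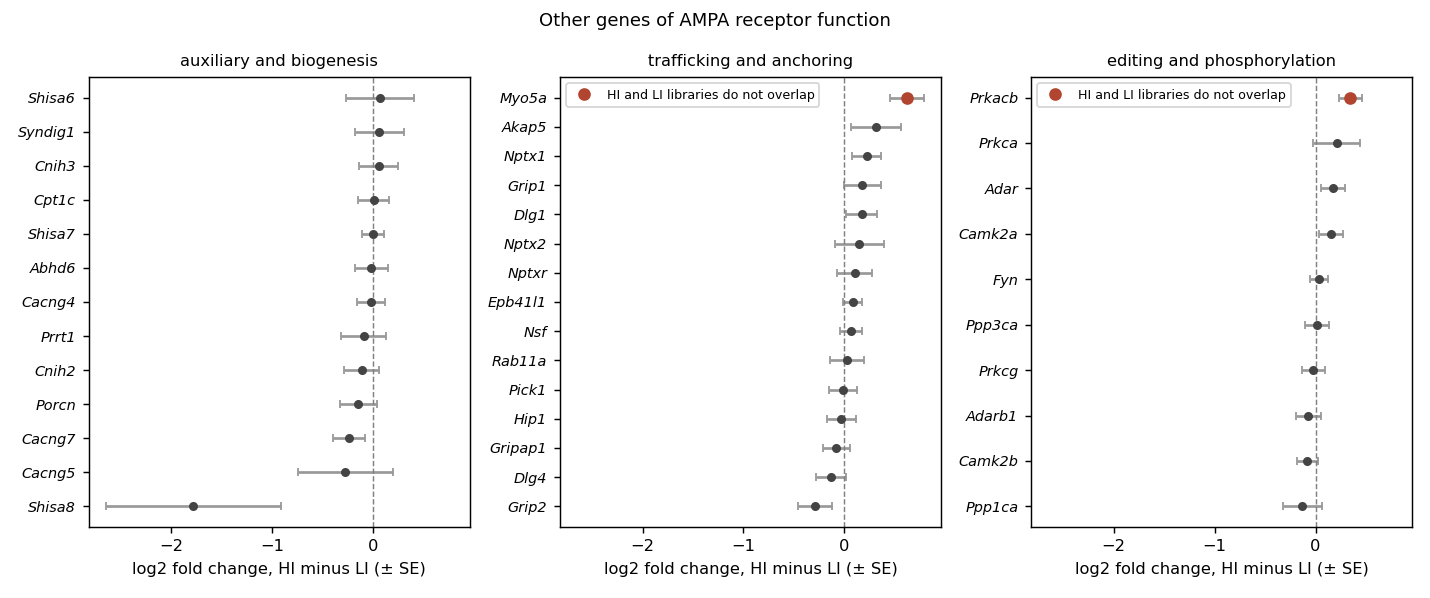
Log2 fold change (HI minus LI) with SE for the 38 other genes tested, in 3 lists; red marks genes whose HI and LI libraries do not overlap. These are Myo5a at 0.62 and Prkacb at 0.34, and the wide bar of Shisa8 at -1.78 goes with the single high library LI4.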

How the data were processed

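RNA from medial prefrontal cortex homogenate was isolated with TRIzol and purified on RNeasy columns, and libraries followed standard Illumina protocols, per the labels' protocols. Per the submitters' processing notes, Bowtie2 2.1.0 was used. The sources used here do not name the program behind the counts, its build and annotation, or any use of strand. Per the file headers, the deposited columns hold each gene's transcript length, effective length, expected count, TPM and FPKM. Between 10.8% and 11.4% of a library's deposited expected counts were not whole, and they were rounded. The deposited TPM, which sums over all listed genes with ribosomal RNA included, gave the proportions; the deposited FPKM entered only an alternative.

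HI was compared with LI by edgeR 4.0.16 (R 4.3.3, TMM, filterByExpr at 10 counts and a total of 15, quasi-likelihood test, p adjusted over 11631 genes). The SE is the absolute log2 fold change over the square root of F, and the 95% interval uses the fit's degrees of freedom. The threshold is 0.1, the alpha of the design text, whose Fisher's exact test on summed counts ignores spread between libraries and was an alternative, as were DESeq2 1.42.0 and limma 3.58.1. Log2 CPM used a prior count of 2. Proportions were compared by two-sided exact permutation over 70 assignments, whose smallest possible p is 0.0286. On counts simulated for HI against LI over 11571 genes, the edgeR test recovered 3 of 99 genes changed by 0.5 log2 units and 62 of 99 changed by 1, with 12 false calls among 77. Simulated counts were drawn independently for each gene and library, without the deviations that these libraries shared. The simulated recovery is therefore not a measure of what the test recovers in these libraries.

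The members and lists were chosen with earlier results of these data known. Named genes were the 7 members, 12 genes of the lists (Gsg1l and Shisa9 had no match), list genes with no overlap or an unadjusted p under 0.05, and the 2 nearest genes per member, of which 1 is not reported here. Replicates differed by more than counting noise and each was kept as 1 library.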

Additional observations from a re-analysis of the deposited data

Results flagged for a closer look

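With 62 groups of 4 libraries checked, chance alone flags about 1 in 20, and 5 groups had 1 library far from the other 3. Gria3 stood at 744 CPM in HI4, against 392 to 448 CPM in the other HI libraries. The Gria3 share of the subunit TPM was 23.9% in LI2, against 29.2 to 30.1% in the other LI libraries. Pick1 stood at 26.6 CPM in HI4, against 34.7 to 35.5 CPM in the other HI libraries. In LI4, Cacng5 stood at 8.48 CPM, against 2.52 to 3.54 CPM in the other LI libraries, and Shisa8 at 38.5 CPM, against 2.42 to 4.42 CPM. HI4 is the library with the least ribosomal RNA and LI2 the one with the most oligodendrocyte and striatal markers, and the part of these in the values was not tested.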

How the results depend on the processing

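The number of genes called was 0 in every alternative except DESeq2 (38), Fisher's exact test on summed counts (6602) and log2 of the ribosomal RNA share as a covariate (440). The last was chosen after seeing the data, as was limma on log2 CPM without length correction. Fisher's test called 6602 of all 11631 genes and 4 of the 7 members, Gria1 at 0.17, Gria3 at 0.060, Cacng2 at -0.29 and Cacng8 at -0.20. It turned Gria2 (-0.0097), Cacng3 (-0.033), Cnih3 (-0.057) and Nsf (-0.021). The ribosomal RNA share itself, as a covariate, moved Cacng3 to 0.25 and Cacng2 to -0.06. Its log2 called 440 of all 11631 genes and 1 of the 7 members, Cacng8 (-0.32), and without HI4 it turned Cacng2 (0.083) and Cacng7 (0.0032). Total counts moved the median over all genes to -0.12 and turned Gria2 (-0.011), Cacng3 (-0.039), Cnih3 (-0.057) and Nsf (-0.038). Length correction turned Gria2 (-0.012), Cacng4 (0.055) and Pick1 (0.0029). Without HI4 and LI3 together, Cacng3 was -0.0079, Cacng8 0.0011, Pick1 0.0052 and the Cacng8 share 1.22 points. The Gria3 share was 0.284 points on counts without length, and the Cacng8 share 0.148 points over 6 TARP genes.

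With 1 library left out, log2 fold changes ran from 0.20 to 0.37 for Gria1, -0.044 to 0.22 for Gria2, -0.088 to 0.31 for Gria3, -0.082 to 0.28 for Gria4, -0.35 to -0.08 for Cacng2, -0.13 to 0.21 for Cacng3 and -0.27 to 0.14 for Cacng8. For other genes they ran from -0.096 to 0.045 for Cacng4, -0.53 to 0.27 for Cacng5, -0.20 to 0.042 for Cnih2, -0.074 to 0.14 for Cnih3, -0.084 to 0.077 for Pick1, -2.12 to 0.032 for Shisa8, -0.33 to -0.12 for Cacng7, 0.017 to 0.31 for Grip1, 0.031 to 0.26 for Dlg1 and 0.024 to 0.13 for Nsf. Differences in share ran from -0.297 to 5.03 points for Gria1, -2.76 to -1.01 for Gria2, -2.05 to 0.725 for Gria3, -0.861 to 0.581 for Gria4, -4.07 to -1.27 for Cacng2, -1.85 to 7.08 for Cacng3 and -5.38 to 4.88 for Cacng8, and the log2 ratio of Gria1 to Gria2 differed by 0.036 to 0.39. The cause of these turns was not tested. A replicate block called 0 genes and 0 members (Gria1 0.28, edgeR, unadjusted p = 0.0198, adjusted p = 0.979). Same-numbered libraries did not deviate together in all pairs, with correlations over genes of 0.215, 0.536, -0.05 and 0.06 for numbers 1 to 4. The numbers were therefore not taken as pairing. Libraries of unlike number also shared deviations, with correlations from -0.591 (HI4 with LI2) to 0.782 (HI4 with LI3). HI1 with LI2 was at 0.41 and HI2 with LI1 at 0.259. What these libraries shared was not tested. The SE of the 7 genes, 0.14 to 0.28 log2 units, limits what 4 libraries against 4 can show.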
